A study of Arabidopsis thaliana with 6 samples.

Results

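The genes described here were bright in YFP-positive cells and, in the YFP-negative cells, lower on the arrays of replicates 1 and 3 than on that of replicate 2, in all but AMY1 and AT2G36650. They are 54 of the 16550 genes named on the arrays. Each had a deposited log2 value above 8 on all 3 YFP-positive arrays. Each was higher in YFP-positive than in YFP-negative cells by more than 4 on the log2 scale, which is 16-fold, in replicates 1 and 3, and by at most 4 in replicate 2. These values chose the genes, so the differences between the 2 cell populations are given as a description, with no test. Most of these genes carry only a locus tag as their name, and 3 carry a symbol. Of 25 listed sieve element markers only 4 were measured under a name. Their highest YFP-positive value was 6.92, in CLE25, so none could meet the rule and their absence from the 54 says nothing. The genes are therefore described by the sort and not as phloem genes.

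The series held 6 Affymetrix arrays of Arabidopsis thaliana, with 3 for each of a YFP-positive and a YFP-negative sort of protoplasts. All plants carried SEOR1pro::SEOR1-YFP, in which the promoter of SEOR1 drives SEOR1 fused to YFP, and were 6-day-old seedlings grown under continuous light. Cotyledons of both groups had been cultured for 72 hours in an induction medium that held 10 µM bikinin, 1.25 mg/L 2,4-D and 0.25 mg/L kinetin, and protoplasts were then sorted by YFP. The design text calls YFP-positive cells phloem and YFP-negative cells non-phloem, and the comparison asks which transcripts mark the sorted phloem cells. No uncultured cotyledons are among these groups, so both populations share the culture and the protoplasting. Arrays with the same replicate number in their titles are called pair 1, 2 and 3 here, and a pair difference is the log2 value of the YFP-positive array less that of its YFP-negative partner. The labels do not say whether the replicates came from separate cultures, so the spread between them may be technical.

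As background, 2,4-D acts as an auxin and kinetin as a cytokinin, while bikinin blocks kinases of the GSK3 type; together they turn leaf mesophyll cells into vascular cells in this culture. Phloem moves sugars and signals through sieve elements, living cells that lose the nucleus and much of their content as they mature. What stays is a thin layer along the plasma membrane with a reshaped endoplasmic reticulum, modified plastids and mitochondria, and filaments of sieve element occlusion proteins, among them SEOR1. Companion cells beside them keep a nucleus and supply them through plasmodesmata. A reporter driven by the SEOR1 promoter therefore marks cells of the sieve element lineage and not phloem as a whole.

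YFP-negative replicate 2 stood apart from the other YFP-negative arrays before any of these genes is considered singly. Its correlation across genes was 0.899 with YFP-negative replicate 1 and 0.894 with replicate 3, against 0.926 between replicates 1 and 3. Of the 80 named genes that were bright in YFP-positive cells and more than 4 higher in pairs 1 and 3, 54 were at most 4 higher in pair 2 and 26 stayed above 4. The same selection turned to pair 1 found 1 gene, and turned to pair 3 found 5 genes. Smaller differences thus concerned replicate 2 far more often than the other replicates, as a count under thresholds and not as a test. In a bulk sample of sorted cells, more cells of a type and more RNA per cell cannot be told apart. SEOR1 itself was not analysed here, so the sort of this array was not checked by its own reporter gene.

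Across the 54 genes, the median value was 10.12, 10.19 and 10.21 on YFP-positive arrays 1 to 3. In YFP-negative cells it was 2.78 in replicate 1, 7.44 in replicate 2 and 3.59 in replicate 3. Replicate 2 of the YFP-negative cells thus lay between the other YFP-negative arrays and the YFP-positive ones. Ranked within each array, the genes had a median percentile of 49.6 and 55.3 among all named genes in YFP-negative replicates 1 and 3, against 90.1 in YFP-negative replicate 2 and 98.2 to 98.8 in the YFP-positive arrays. A rank within 1 array does not depend on how the arrays were set on a common scale. All 54 genes exceeded the median of their array in YFP-negative replicate 2, while 31 did so in each of replicates 1 and 3, and 19 were under that median in both.

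**Figure D1:**
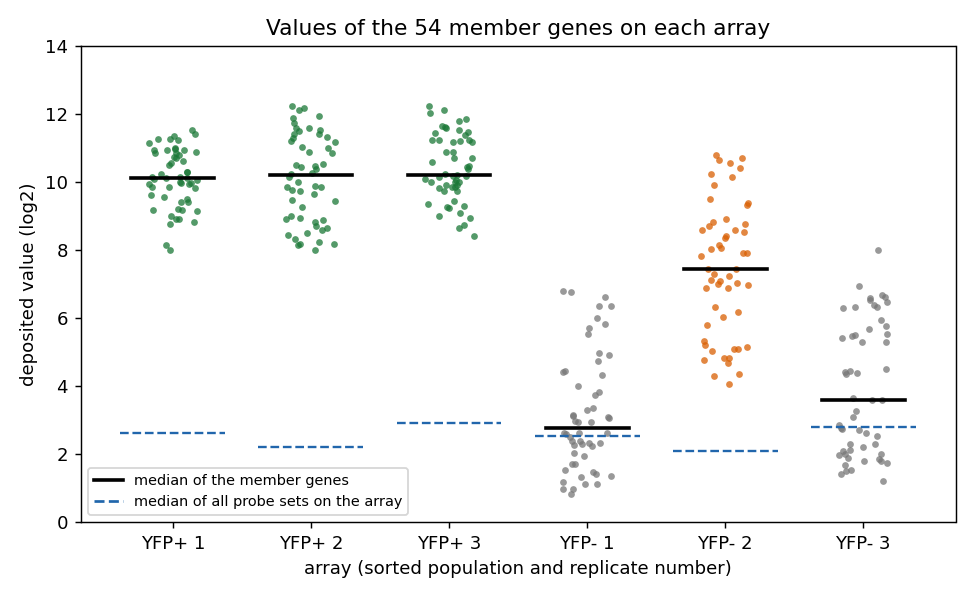
Deposited log2 value (vertical axis) of the 54 genes on each of the 6 arrays (horizontal axis), with 1 point per gene, a black bar for their median and a dashed line for the median of all probe sets on the array. The points of YFP-negative replicate 2 have a median of 7.44 and lie above the dashed line without exception. Their median is between those of the YFP-positive arrays and those of the other YFP-negative arrays.

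The median pair difference was 7.04 in pair 1, 2.65 in pair 2 and 6.71 in pair 3. On the linear scale the YFP-negative value was a median of 0.759% of the YFP-positive value in pair 1, 15.9% in pair 2 and 0.961% in pair 3. In pair 2 it ran from 6.28% to 57.3%, whereas the highest value was 4.78% in pair 1 and 5.78% in pair 3. How deposited values relate to transcript level at the dim end is not known, so the shares in pairs 1 and 3 are ratios of deposited values. YFP-negative replicate 2 was above the mean of the other YFP-negative arrays by a median of 3.94 on the log2 scale, where the median over all named genes was -0.30. It was above both other YFP-negative arrays in 52 of the 54 genes, against 21.2% of all named genes, and more than 2 above both in 46, against 0.743%. The rule used these arrays, so the counts say how the genes look and support nothing further.

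The YFP-positive side did not differ by as much. YFP-positive replicate 2 differed from the mean of YFP-positive replicates 1 and 3 by a median of -0.05 over the 54 genes. Over all named genes that median was -0.37. The array was the highest of the 3 in 16 of the 54 genes and the lowest in 20. Over the 16550 named genes it was the highest in 2358 and the lowest in 9565. Set beside all named genes, the 54 were thus somewhat higher on that array too. In all 54 genes the lowest YFP-positive value was above the highest YFP-negative value, against 4.96% of named genes with such groups, and the smallest such gap was 0.18. That count follows largely from the rule and is read no further.

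The genes fell into 3 ranges by what was left in YFP-negative replicate 2. In 14 genes the pair 2 difference was at most 2, which leaves 25.3% to 57.3% of the YFP-positive value. In 22 genes it lay between 2 and 3, leaving 13.0% to 22.4%, and in 18 between 3 and 4, leaving 6.28% to 11.5%. The genes with more left were also the brighter ones: the median of the mean YFP-positive value was 11.26 where the difference lay between 1 and 2, 10.30 between 2 and 3, and 9.27 between 3 and 4. Over the same ranges the median of the mean of YFP-negative replicates 1 and 3 was also higher with more left, at 6.06, 2.71 and 1.94. The median excess of YFP-negative replicate 2 over that mean did not follow this order, at 4.32, 4.56 and 3.15. Across the 54 genes the pair 2 difference correlated with the mean YFP-positive value at r = -0.60 and Spearman's rho of -0.61. The genes share the same 6 arrays and the value of YFP-positive replicate 2 enters both measures, so this is a description. Placed on the log2 way from the mean of YFP-negative replicates 1 and 3 to YFP-positive replicate 2, the genes lay at a median of 61.6%. In 43 of them YFP-negative replicate 2 lay past the middle of that way.

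**Figure D2:**
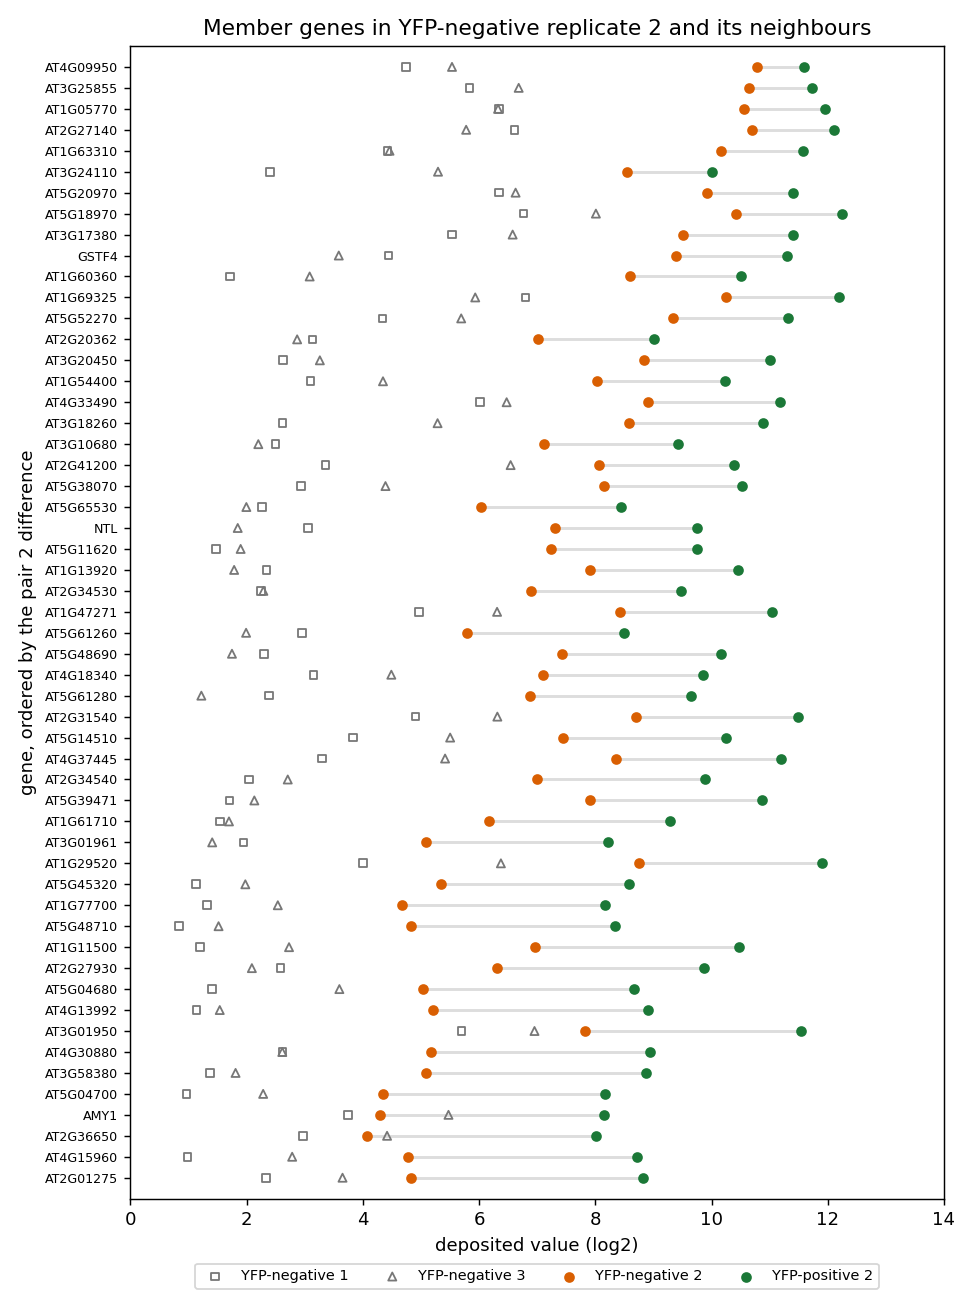
Deposited log2 value (horizontal axis) of each of the 54 genes (vertical axis, ordered by pair 2 difference) in YFP-negative replicates 1 to 3 and YFP-positive replicate 2; the grey line is the pair 2 difference. The difference grows from 0.80 at the top to 3.99 at the bottom, and only AMY1 and AT2G36650 have a YFP-negative replicate 2 value that is not above both other YFP-negative arrays.

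The functions below are general knowledge of these Arabidopsis loci and of their protein families. They were not checked here, since the tables used give locus tags and few symbols. On that basis 39 of the 54 genes were put in 7 role groups, and 15 are given without a role.

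Among 4 genes of HSP20-like proteins, which share the fold of the small heat shock chaperones, YFP-negative replicate 2 retained a median of 28.7% of the YFP-positive value. AT2G27140 stood at 11.00, 12.10 and 11.84 in YFP-positive replicates 1 to 3 and at 6.61, 10.70 and 5.78 in YFP-negative replicates 1 to 3. Its value in YFP-negative replicate 2 was 37.8% of that in YFP-positive replicate 2. AT5G20970, of the same family, read 11.26, 11.41 and 11.38 in YFP-positive cells and 6.34, 9.92 and 6.63 in YFP-negative cells, with 35.6% left. Both were moderately bright in the other YFP-negative arrays too. The other two were low there: AT1G54400 had 3.10, 8.03 and 4.35 in YFP-negative cells against 10.14, 10.23 and 10.05 in YFP-positive cells. AT3G10680 had 2.50, 7.11 and 2.20 against 10.13, 9.43 and 10.09. For this pair of genes YFP-negative replicate 2 was 4.31 and 4.76 above the mean of the other YFP-negative arrays on the log2 scale.

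A group of 3 genes belongs to the endomembrane system, with a median of 22.4% left. AT3G18260 encodes a reticulon, a class of proteins that bend the membrane of the endoplasmic reticulum into tubules. It stood at 9.94, 10.89 and 10.71 in YFP-positive cells and at 2.62, 8.59 and 5.29 in YFP-negative cells. AT3G20450 is related to BAP31, a protein of the endoplasmic reticulum known in mammals, and read 9.87, 11.00 and 10.71 in YFP-positive and 2.62, 8.84 and 3.26 in YFP-negative cells. AT5G52270 is SNARE-like, of a fold found in proteins of vesicle traffic, and read 10.69, 11.31 and 11.20 in YFP-positive and 4.34, 9.34 and 5.69 in YFP-negative cells. In each of the 3 the value of YFP-negative replicate 2 exceeded the other YFP-negative arrays by more than 3 on the log2 scale. The YFP-negative and YFP-positive values did not overlap, as in all 54 genes, which follows largely from the rule.

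Of 8 genes for membrane-associated proteins, 3 encode remorins, plant proteins attached to the inner face of the plasma membrane and found in its nanodomains and at plasmodesmata. AT1G69325 stood at 11.34, 12.19 and 11.79 in YFP-positive and 6.80, 10.25 and 5.93 in YFP-negative cells, AT1G13920 at 10.95, 10.45 and 9.99 in YFP-positive and 2.34, 7.91 and 1.79 in YFP-negative cells. AT5G61280 stood at 10.24, 9.65 and 9.73 in YFP-positive and 2.39, 6.88 and 1.22 in YFP-negative cells. The share left in YFP-negative replicate 2 was 26.1%, 17.2% and 14.7%. Only AT1G69325 was above the array median in YFP-negative replicates 1 and 3 as well.

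A pair of AWPM-19-like genes, named after a plasma membrane protein of wheat, lay at the top of the brightness range. AT5G18970 read 11.53, 12.24 and 12.12 in YFP-positive and 6.77, 10.42 and 8.01 in YFP-negative cells, and kept 28.3% in YFP-negative replicate 2. AT1G29520 read 11.41, 11.90 and 12.24 in YFP-positive and 4.01, 8.75 and 6.38 in YFP-negative cells, and kept 11.3%. They were alike in YFP-positive cells and differed in what was left.

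AT3G01950, which encodes a small protein of the DUF3339 family, was bright in YFP-positive cells at 11.26, 11.54 and 12.03 but was not low in the YFP-negative arrays, at 5.70, 7.83 and 6.95. Its YFP-negative replicate 2 was 1.50 above the mean of the other YFP-negative arrays, the smallest excess of the 54 genes after AMY1 and AT2G36650. AT5G04680 and AT5G04700 carry ankyrin repeats and are near neighbours on the chromosome. They had 1.40, 5.04 and 3.60 and 0.97, 4.35 and 2.29 in YFP-negative cells, with 9.98, 8.66 and 10.60 and 10.12, 8.16 and 9.85 in YFP-positive cells. In both, YFP-positive replicate 2 was the lowest YFP-positive array, which brings the pair 2 difference down from its own side.

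Ubiquitin-related and TRAF-like proteins account for 6 genes, with a median of 14.1% left. RING-type zinc fingers, the usual module of ubiquitin ligases, are encoded by AT1G60360, AT5G38070 and AT2G01275. AT1G60360 read 10.31, 10.51 and 10.37 in YFP-positive and 1.72, 8.60 and 3.09 in YFP-negative cells. With 6.20 on the log2 scale it had the largest excess of YFP-negative replicate 2 over the mean of the other YFP-negative arrays among the 54 genes. AT5G38070 read 10.06, 10.52 and 10.19 in YFP-positive and 2.93, 8.16 and 4.39 in YFP-negative cells. AT2G01275, at 9.19, 8.83 and 9.27 in YFP-positive and 2.33, 4.83 and 3.65 in YFP-negative cells, was the gene just inside the threshold of 4. What was left in the 3 genes ran from 26.5% down to 6.28%.

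AT3G17380 and AT3G58380 encode TRAF-like proteins, a fold that serves protein binding. AT3G17380 kept 26.8% and AT3G58380 7.24% of the YFP-positive value. The ubiquitin-like gene AT5G48710 was dimmer, at 8.01, 8.34 and 8.40 in YFP-positive and 0.83, 4.83 and 1.52 in YFP-negative cells. It had the lowest single value of the set, on YFP-negative replicate 1.

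Signalling and regulatory proteins were encoded by 8 genes, with a median of 17.4% left. AT4G09950 encodes a GTP-binding protein of the AIG1 type, a family known for genes induced in plant immunity. Its values were 10.96, 11.59 and 11.45 in YFP-positive cells and 4.74, 10.78 and 5.53 in YFP-negative cells. With 57.3% left it had the smallest pair 2 difference of the set, 0.80, where the pair 1 and pair 3 differences were 6.22 and 5.91. AT3G24110, with calcium-binding EF-hands, followed in this group at 36.3%, with 10.15, 10.01 and 9.82 in YFP-positive cells and 8.54 in YFP-negative replicate 2. YFP-negative replicate 3 of AT3G24110 was at 5.29, with replicate 1 lower still.

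The receptor-like cytoplasmic kinase gene AT5G65530 read 9.40, 8.44 and 8.995 in YFP-positive and 2.26, 6.03 and 2.00 in YFP-negative cells. NTL, for a protein like nuclear transport factor 2, which carries the GTPase Ran into the nucleus, read 9.02, 9.75 and 9.87 in YFP-positive and 3.06, 7.30 and 1.85 in YFP-negative cells. The PLATZ gene AT2G27930, of a plant family of zinc-binding DNA-binding proteins, read 9.63, 9.86 and 10.43 in YFP-positive and 2.58, 6.32 and 2.09 in YFP-negative cells. What was left came to 18.8%, 18.3% and 8.57%, within the range of the other role groups. AT1G47271, with CBS domains, AT5G14510, with ARM repeats, and AT5G61260, related to calmodulin-binding proteins, kept 16.4%, 14.3% and 15.4%.

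The 6 genes for wall, extracellular and carbohydrate proteins had the lowest median of the 7 role groups, at 11.6%, and none of them had a pair 2 difference of at most 2. AT4G33490, an aspartyl protease, read 11.13, 11.17 and 11.61 in YFP-positive and 6.02, 8.90 and 6.47 in YFP-negative cells and kept 20.7%. AT4G18340, of glycoside hydrolase family 17, whose members cut beta-1,3-glucans such as the callose of sieve pores, read 9.87, 9.85 and 9.91 in YFP-positive and 3.15, 7.10 and 4.49 in YFP-negative cells and kept 14.9%. AT2G31540, a GDSL esterase or lipase, kept 14.4%. The values left were lower in AT1G77700, which is thaumatin-like, at 8.88%, and in AT4G30880, like the lipid transfer proteins, at 7.26%.

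AMY1, an alpha-amylase that cuts starch, was the exception of this group. Its YFP-positive values were 8.92, 8.14 and 9.73 and its YFP-negative values 3.75, 4.29 and 5.47. YFP-negative replicate 2 thus lay between the other YFP-negative arrays, and AMY1 met the rule with a pair 2 difference of 3.85 where those of pairs 1 and 3 were 5.17 and 4.26. AT2G36650, given without a role, was the other such gene, at 8.76, 8.01 and 9.36 in YFP-positive and 2.97, 4.07 and 4.42 in YFP-negative cells. For these 2 genes the word intermediate holds for the pair difference and not for the level in YFP-negative replicate 2.

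The remaining 4 genes with a role encode small-molecule enzymes and binding proteins, and 3 of them kept 26.8% to 46.9% of the YFP-positive value. AT3G25855, with a heavy-metal-associated domain, stood at 10.93, 11.74 and 11.18 in YFP-positive and 5.83, 10.64 and 6.68 in YFP-negative cells, and kept 46.9%. AT1G05770, a lectin of the jacalin type, stood at 11.22, 11.95 and 11.59 in YFP-positive and 6.34, 10.56 and 6.33 in YFP-negative cells, and kept 38.1%. GSTF4, a glutathione S-transferase of the phi class, stood at 10.95, 11.29 and 10.88 in YFP-positive and 4.44, 9.39 and 3.59 in YFP-negative cells, and kept 26.8%. The alpha/beta hydrolase gene AT4G15960 differed from these, being under the array median in YFP-negative replicates 1 and 3. It read 9.14, 8.72 and 10.00 in YFP-positive and 0.98, 4.78 and 2.78 in YFP-negative cells, with 6.49% left.

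**Figure D3:**
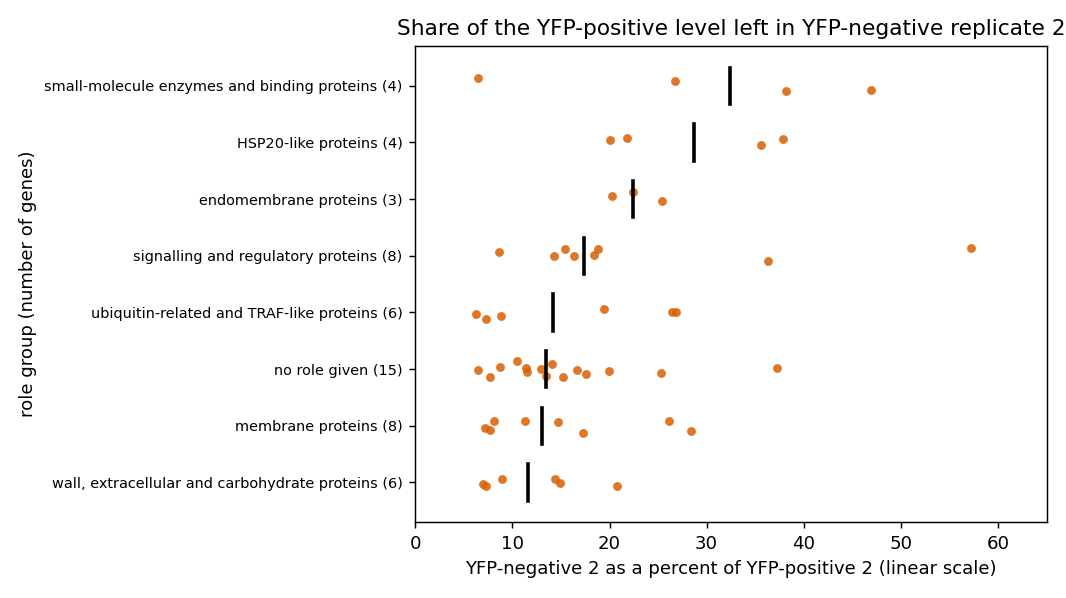
YFP-negative replicate 2 as a percent of YFP-positive replicate 2 on the linear scale (horizontal axis) for each of the 54 genes, by role group with its number of genes (vertical axis); the black bar is the group's median. The medians run from 11.6% for wall, extracellular and carbohydrate proteins to 32.4% for small-molecule enzymes and binding proteins, and the ranges of the groups overlap.

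The role groups had medians from 11.6% to 32.4%, but their ranges overlapped and the groups hold 3 to 8 genes each. No group is called apart from the others on these values. The 15 genes without a given role had a median of 13.4% and ran from 6.50% to 37.3%. The most left among them was in AT1G63310, which stood at 10.51, 11.58 and 11.52 in YFP-positive and 4.42, 10.15 and 4.46 in YFP-negative cells. AT5G39471 had the largest pair 3 difference of the 54 genes, 9.11, from 10.78, 10.86 and 11.25 in YFP-positive and 1.71, 7.91 and 2.13 in YFP-negative cells. AT1G11500 had the largest pair 1 difference, 9.42, and kept 8.70% in YFP-negative replicate 2. AT2G20362 and AT5G11620 kept 25.3% and 17.6%. AT2G41200 read 3.36, 8.07 and 6.54 in YFP-negative cells, so that replicates 1 and 3 lay far apart there too. AT2G36650 aside, the other 8 kept between 7.68% in AT4G13992 and 16.7% in AT2G34530.

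Several of these genes lie side by side on the chromosome, a property the rule did not use. Of the 53 genes placed in the RefSeq order of protein-coding genes, 10 had another of the 54 within 3 positions, in 5 pairs. That is 18.9%, where 1.103% of the 16406 measured and placed genes had 1 of the 54 within 3 positions. AT2G34530 and AT2G34540 are direct neighbours, with 16.7% and 13.4% left in YFP-negative replicate 2. AT3G01950 and AT3G01961 are direct neighbours too, with 7.64% and 11.4%. The other pairs, each with 1 gene between them, are AT5G04680 and AT5G04700, AT5G48690 and AT5G48710, and AT5G61260 and AT5G61280. Neighbours can be related copies, and whether their probe sets share signal was not tested. There was 1 such pair between placed genes of the 54 and of the 26 above 4 in every pair, with differing values. AT5G38070 stood at 8.16 in YFP-negative replicate 2 while the adjacent AT5G38080 stood at 2.91, with 2.30% of its YFP-positive value. Within the 26, AT5G67040 and AT5G67050 are direct neighbours as well, with 0.734% and 5.61% left in YFP-negative replicate 2. Genes outside the RefSeq order could not enter these pairs.

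The 26 genes that stayed above 4 in every pair are the set most like these 54. In YFP-negative replicates 1 and 3 the levels were close, with medians of 2.81 and 3.38 in the 26 genes against 2.78 and 3.59 in the 54. In YFP-negative replicate 2 the 26 genes had a median of 3.35. That array was above both other YFP-negative arrays in 10 of the 26 and below both in 12, with a median excess of -0.07. It was below both in 0 of the 54. Over the 16550 named genes it was above both in 21.2% and below both in 8144, with a median excess of -0.30. The share of the 26 that was below both is thus near that of all named genes. The share above both was larger, at 38.5%. In 5 of the 26, or 19.2%, the array was more than 2 above both, against 0.743% of all named genes. AT4G05430, at 1.34 in YFP-negative replicate 2 and 9.63 in YFP-positive replicate 2, kept 0.321%, and AT5G67040, at 1.12 and 8.21, kept 0.734%. The split between the sets was made on pair 2 itself, which keeps YFP-negative replicate 2 low in the 26. The contrast between the sets on that array thus largely follows from the split, has no test and is read no further.

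The threshold of 4 did not fall in a gap. Just inside it were AT2G01275 at 3.99, AT4G15960 at 3.94, AT2G36650 at 3.94, AMY1 at 3.85 and AT5G04700 at 3.81. Just outside were AT1G34480 at 4.13, AT5G67050 at 4.15, AT4G21310 at 4.34, AT1G08160 at 4.58 and AT3G15800 at 4.59. Of these 5 genes outside, AT1G34480 had 4.41 in YFP-negative replicate 2 against 1.89 and 1.66 in replicates 1 and 3, and AT5G67050 had 4.95 against 2.74 and 1.53. The values of these 2 genes are like those of the genes just inside.

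**Figure D4:**
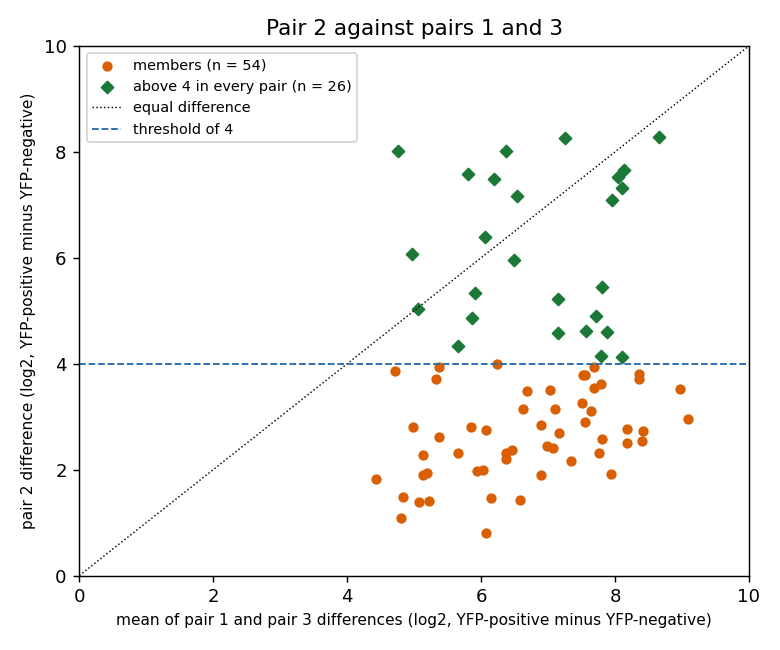
Pair 2 difference (vertical axis) against the mean of the pair 1 and pair 3 differences (horizontal axis), both in log2 units with YFP-positive cells first, for the 54 genes (circles) and the 26 genes above 4 in every pair (diamonds). The 54 genes lie below the dotted line of equal differences, with a median pair 2 difference of 2.65, and the 26 genes lie on both sides of it from 4.13 to 8.28.

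Regardless of brightness, 123 named genes were more than 2 higher in YFP-negative replicate 2 than in both other YFP-negative arrays, and 46 of them were among the 54. The 46 were higher by more than 4 in YFP-positive cells in pairs 1 and 3 by the rule. Of the other 77 genes, 14 were more than 2 higher in YFP-positive cells in both pair 1 and pair 3, or 18.2%, where 2.103% of all named genes were. The same count turned to YFP-negative replicate 1 gave 16 of 192 genes, or 8.33%, and to replicate 3 gave 31 of 450, or 6.89%. Low values of YFP-negative replicates 1 and 3 enter both sides of that count, as the corresponding arrays do in the others, so the shares are a description. The other 294 named genes that were more than 2 higher in pairs 1 and 3 had a median excess of -0.33 in YFP-negative replicate 2. That median turned positive after other scalings, at 0.13 (quantile) and 0.46 (centring). The array was above both others in 85 of them and below both in 130. Over the 16550 named genes it was above both in 21.2% and below both in 8144. The median excess over all named genes was -0.30, or -0.01 (quantile) and 0.50 (centring). The medians of the 294 genes thus lay near those of all named genes. Taking out the 54, chosen for a small pair 2 difference, lowers these medians, so the nearness is partly set by the rule. With the 54 kept, the 348 genes had medians of -0.11, 0.53 (quantile) and 0.68 (centring). The array was above both others in 137 of the 348 and below both in 130.

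Markers of other cell types and of sieve elements gave little to set beside this. Of the lists for 6 cell types, 15 of 90 listed names were measured under a name, and none was among the 54 genes. For sieve elements 4 of 25 were measured, and their summed log2 level was 11.5 in YFP-negative replicate 2, against 13.9 and 15.8 in replicates 1 and 3 and 14.5 to 20.3 in YFP-positive arrays. CLE45, a peptide gene of the protophloem, stood at 1.44 in YFP-negative replicate 2 against 2.20 and 2.34 in the others, and at 4.40, 3.47 and 4.56 in YFP-positive cells. OPS, a regulator of phloem differentiation, was also lower there, at 2.41 against 4.92 and 5.57, and it was low in YFP-positive replicate 2 too, at 3.58 against 5.21 and 6.31. The peptide genes CLE25 and CLE26 lay between the other YFP-negative arrays, at 6.30 against 5.27 and 6.68 and at 1.35 against 1.47 and 1.17. CLE26 was under the array median on all 6 arrays, and CLE45 on the 3 YFP-negative arrays, so their order there says little. None of the 4 was above both other YFP-negative arrays in replicate 2, where 21.2% of all named genes were. The median over all named genes was lower on both arrays of replicate 2 than on the others. For mesophyll 3 of 15 were measured, with a summed level of 19.4 in YFP-negative replicate 2 against 18.7 and 20.6, and 17.1 to 17.8 in YFP-positive arrays. The 63 chloroplast-encoded genes had a median of 8.16 in YFP-negative replicate 2 against 8.44 and 9.19. Of companion cell and phloem parenchyma markers 1 of 8 was measured, of xylem 1 of 16, of procambium and cambium 2 of 11, and of epidermis and guard cells 4 of 15. In each of these lists the summed level was lower in YFP-negative replicate 2 than in both other YFP-negative arrays. It was 12.3 against 13.9 and 18.8 for epidermis and guard cells, and 2.29 against 4.11 and 7.92 for the companion cell list. The low summed level of sieve element markers on that array was thus not particular to them. With so few members, the part of other cell types in the values of replicate 2 was not tested.

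Across all named genes limma called 142 higher in YFP-positive cells at an adjusted p under 0.05, or 0.858%. Among the 54 genes it called 8, and with the replicate number as a block 1, which was AMY1, against 0.495% of all genes. Without YFP-negative replicate 2 it called 51 of the 54, against 0.912%, and without both arrays of replicate 2 it called 41, against 0.743%. Leaving out YFP-negative replicate 1 gave 3 and YFP-positive replicate 2 gave 1. Leaving out YFP-negative replicate 3, YFP-positive replicate 1 or YFP-positive replicate 3 gave 0 in limma, with 48, 52 and 50 of the 54 at an unadjusted p under 0.05. These counts are given for completeness, because the genes were chosen on this contrast, and nothing is read from them.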

How the data were processed

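The authors deposited 1 table of log2 values for 38408 probe sets, which per the submitters' processing notes came from RMA, with no version or setting given. That they are log2 follows from their range, -0.11 to 13.39. RNA had been amplified (NuGEN Ovation) before labelling, per the labels' protocols. The sorted values of the 2 arrays of a number differed on average by 0.020, 0.085 and 0.038 (numbers 1 to 3), those of different numbers by 0.157 to 0.551, so how arrays of different numbers share a scale is not known. Array signal over background was not analysed here, and the number of arrays limits the precision.

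Genes were named through the platform's probe table, with symbols updated by gene ID from RefSeq's TAIR10.1 gene table (53 of the 54 genes described here matched). The 16722 probe sets with exactly 1 gene were used, and the brightest on average was taken where a gene had several; 20927 probe sets are not named here. Coordinates are left out, and positions in the RefSeq table were used only for the order of genes on a chromosome.

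The members, lists and role groups were chosen with earlier results of these data known. The text names members with a symbol, at either end of the pair 2 difference, of the YFP-positive level or of YFP-negative replicate 2, or with relatives among the members, then the 5 genes just outside the threshold and measured markers; any other name was picked with its values in view. The counts over all genes came from limma 3.58.1 under R 4.3.3 (moderated linear model, two-sided, Benjamini-Hochberg over 16550 genes, threshold 0.05, no filter). On simulated data for this comparison with 16550 genes it recovered 26 of 100 genes changed by 2 on the log2 scale and 75 of 100 changed by 4. It also called 2 unchanged genes. The simulated noise was normal and independent between arrays, unlike that of these arrays, so recovery in the real data may differ. Same-numbered arrays of opposite groups deviated together, with correlations of their deviations of 0.66, 0.61 and 0.49, so the numbers of the titles were taken to pair the arrays. Both arrays of number 1 had exactly equal values in 13489 probe sets, against 1961 and 1860 for numbers 2 and 3; the reason is not known, and it bears on that first correlation and on pair 1 differences of 0, of which the members have none. Alternatives were the replicate block, quantile normalization, median centring, a filter on dim genes, the mean of a gene's probe sets, other thresholds and leaving out each array.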

Additional observations from a re-analysis of the deposited data

Results flagged for a closer look

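Probe sets outside the named genes also carried the pattern, and no comparison above uses them. Of the 20927 probe sets that are not named here, 17 met the same rule, with medians of 6.75, 2.59 and 6.62 for the differences of pairs 1 to 3 and a median excess of 4.31 in YFP-negative replicate 2. A further 14 stayed above 4 in every pair, while the selection turned to pair 1 found 0 and that turned to pair 3 found 5. Among the 759 probe sets paired with several genes, 1 met the rule, with a pair 2 difference of 2.64.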

How the results depend on the processing

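The rule gave 38 to 65 genes over its 7 alternatives, against 54. Of the 54 genes 51 were among the 62 that met it after quantile normalization and 52 among the 61 after median centring. A difference threshold of 3 kept 36 of the 54 and one of 5 kept 40, a YFP-positive level above 9 kept 38, and a level above 7 or the mean of probe sets kept 54. The median pair 2 difference ran from 2.24 to 3.03 over the alternatives, and the median excess of YFP-negative replicate 2 from 3.67 to 4.74. The SD of the members' median was 2.44 between pairs and 2.49 between YFP-negative arrays. The replicate 2 difference that chose the genes enters both SDs, so they are no yardstick for these ranges. Median centring moved the median excess of all genes from -0.30 to 0.50, and quantile normalization to -0.01.

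The counts of limma depended on the setting, and the cause was not tested. With the replicate block 90 genes were called over all genes against 179, and 1 of the members against 8. Median centring called 481 genes and 33 members, the filter on dim genes 344 and 38 among fewer genes tested, and quantile normalization 241 genes and 5 members. Leaving out 1 array gave 37 to 164 genes and 0 to 51 members, highest without YFP-negative replicate 2 for both. Without both arrays of replicate 2, a setting added after seeing the data, 41 members were called.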
